A study of Mus musculus with 29 samples.

Results

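The 10 genes described here encode the contractile apparatus of smooth muscle, Acta2, Actg2, Myh11, Tagln, Des, Cnn1, Lmod1, Mylk, Synm and Smtn. They were chosen by name, as the 10 rows of a count table of 54532 genes whose Ensembl identifiers map to these symbols, and all 10 passed the filter on low counts. RNA was sequenced from colon segments of 29 mice in 9 groups. The purpose of the mouse series was to compare the colon in several models of colitis, and each model is set here against its own untreated control.

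The labels describe 3 untreated wild-type Balb/C mice as the control of 3 groups. The DSS mice (n = 3), labelled Balb/C, drank 3% dextran sulphate sodium, which injures the epithelium, for 5 days. They were culled at day 10. DNBS (n = 3), a hapten, was given rectally to Balb/C mice as 3 mg in 200 µl of 50% ethanol. Its control mice are described as untreated rather than given ethanol. The IL-10 deficiency group (n = 4) is labelled as Balb/C mice given an IL10 blocking antibody, for which the protocol states 750 µg of anti-IL-10R and culling after 4 weeks, whereas the study's methods describe Il10-/- mice. Untreated C57BL/6 Rag1-/- mice (n = 3), which make no T or B cells, are the control of T-cell transfer (TCT) and of anti-CD40. The TCT mice (n = 3), labelled C57BL/6, received 500000 naive CD4+ T cells and were culled after 6 to 8 weeks. The anti-CD40 mice (n = 3), labelled C57BL/6 Rag1-/-, received 50 µg of an agonist antibody to CD40 and were culled after 7 days. Untreated Balb/C Rag2-/- mice (n = 3) are the control of TRUC (n = 4), Balb/C Tbx21-/- x Rag2-/- mice, which lack T-bet as well as lymphocytes and develop colitis spontaneously. The labels' protocol names Rag2-/- recipients for TCT where the genotype label and the study's methods have Rag1-/-, so which control fits TCT is in doubt, and the methods give shorter times to culling for TCT and DSS than the protocol does. Ages are not stated as such in the labels, and the methods name C57BL/6 rather than Balb/C for the wild-type and DSS mice, so strain cannot be told apart from treatment where the labels are in doubt.

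Smooth muscle of the colon lies in the inner and outer layers of the muscularis externa, in the muscularis mucosae and in vessel walls. It shortens when calcium, bound to calmodulin, activates myosin light chain kinase, which phosphorylates the regulatory light chain so that smooth muscle myosin can pull on actin filaments. Calponin, transgelin, smoothelin and leiomodin bind or build the actin filaments, desmin and synemin form the intermediate filaments that tie the apparatus together, and serum response factor with its partner myocardin drives most of these genes through the CArG box. Loss of contractile gene expression is a known feature of smooth muscle that switches to a less differentiated state, and disturbed motility is a known feature of colitis.

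The CArG box is shown because it is the element these genes are best known to share. RefSeq gave the 250 bases before the start site (GRCm38.p6) for 7 of the 10 genes, which did not include Actg2, Myh11 and Tagln. The exact box, read on both strands, was in none of these 7 windows and in 1.62% of the 27025 genes in the table. With 1 G or C allowed among the middle bases, a form searched only after the exact box had not been found, 2 of the 7 genes held a box against 9.78% of all genes. Each is printed with the bases on either side, the box in capitals. In GENCODE M21 the Acta2 boxes lie inside the first exon, since that annotation starts the gene farther upstream than RefSeq does. The windows of Mylk (chr16:34784700-34784949) and Smtn (chr11:3539293-3539542) likewise lie inside those genes in GENCODE M21. They do not cover the start sites of that annotation. A match of letters is a description of the sequence and not evidence of binding.
Acta2, 84 bases before the start, chr19:34255438-34255467, minus strand: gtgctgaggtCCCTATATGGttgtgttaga
Acta2, 34 bases before the start, chr19:34255388-34255417, minus strand: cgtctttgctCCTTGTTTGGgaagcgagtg
Synm, 239 bases before the start, chr7:67759962-67759991, minus strand: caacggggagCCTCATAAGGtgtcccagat

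Total counts per mouse ran from 10725564 to 14977094, and 3 counts, the limit that a count of 0 allows, correspond to 0.179 to 0.313 CPM (TMM-scaled counts-per-million). The members had between 24 and 53911 counts per library, so counting error was small beside the level of each gene for all but Tagln. It was not always small beside the spread between mice. Lmod1 in the wild-type control had 1233 to 1473 counts and 99.6 ± 1.5 CPM (SD, n = 3). Smooth muscle was present in every library, since Myh11, Actg2, Cnn1, Des and Lmod1, its defining markers and themselves members, summed to between 2088 and 9712 CPM, and epithelial markers of the colon summed to between 8947 and 27990 CPM. Genotype labels were in part at odds with the counts. TCT libraries held 20 to 33 counts of Rag1, while those labelled Rag1-/- control held at most 4 and those labelled anti-CD40 at most 2. For Rag2 the order was opposite, with 0 counts in TCT, 6 to 20 under the Rag1-/- control label and 48 to 99 under the anti-CD40 label. In the libraries labelled Rag2-/- control and TRUC, Rag2 had 15 to 25 and 57 to 94 counts, against at most 1 in the wild-type control, and Tbx21 had 26 to 52 counts in TRUC against 1 to 7 in its control. Gene counts do not show which exons were deleted. IL-10 deficiency mice carried between 61 and 111 counts of Il10, against 1 to 4 for wild-type control mice. The TCT mice are therefore compared with control libraries whose Rag transcripts differ from theirs.

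Within the wild-type control the genes spanned a wide range of levels. Per kilobase of exon, the actins stood at the top, Acta2 with 731 ± 62.3 CPM per kb (SD, n = 3) and Actg2 with 608 ± 134. Next came Myh11 with 346 ± 27.9, Des with 330 ± 37.6 and Cnn1 with 318 ± 48.5 CPM per kb, which did not differ from each other beyond their spread, just as the actins overlapped. Smtn (70.0 ± 2.0), Mylk (54.2 ± 2.3) and Synm (45.6 ± 5.3) formed a lower tier and Lmod1 reached 25.2 ± 0.4 CPM per kb. Tagln, which encodes transgelin, a protein abundant in smooth muscle, was listed at only 3.9 ± 1.0 CPM per kb. Of its 50-base exon windows 58.35% are shared with exons of Pcsk7 and Gm48529 on the opposite strand, and neither the strandedness of the libraries nor the counting of overlapping reads is given in the sources used here. Its values are therefore uncertain, while at most 9.46% of the windows of any other member (Smtn) were shared.

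**Figure D1:**
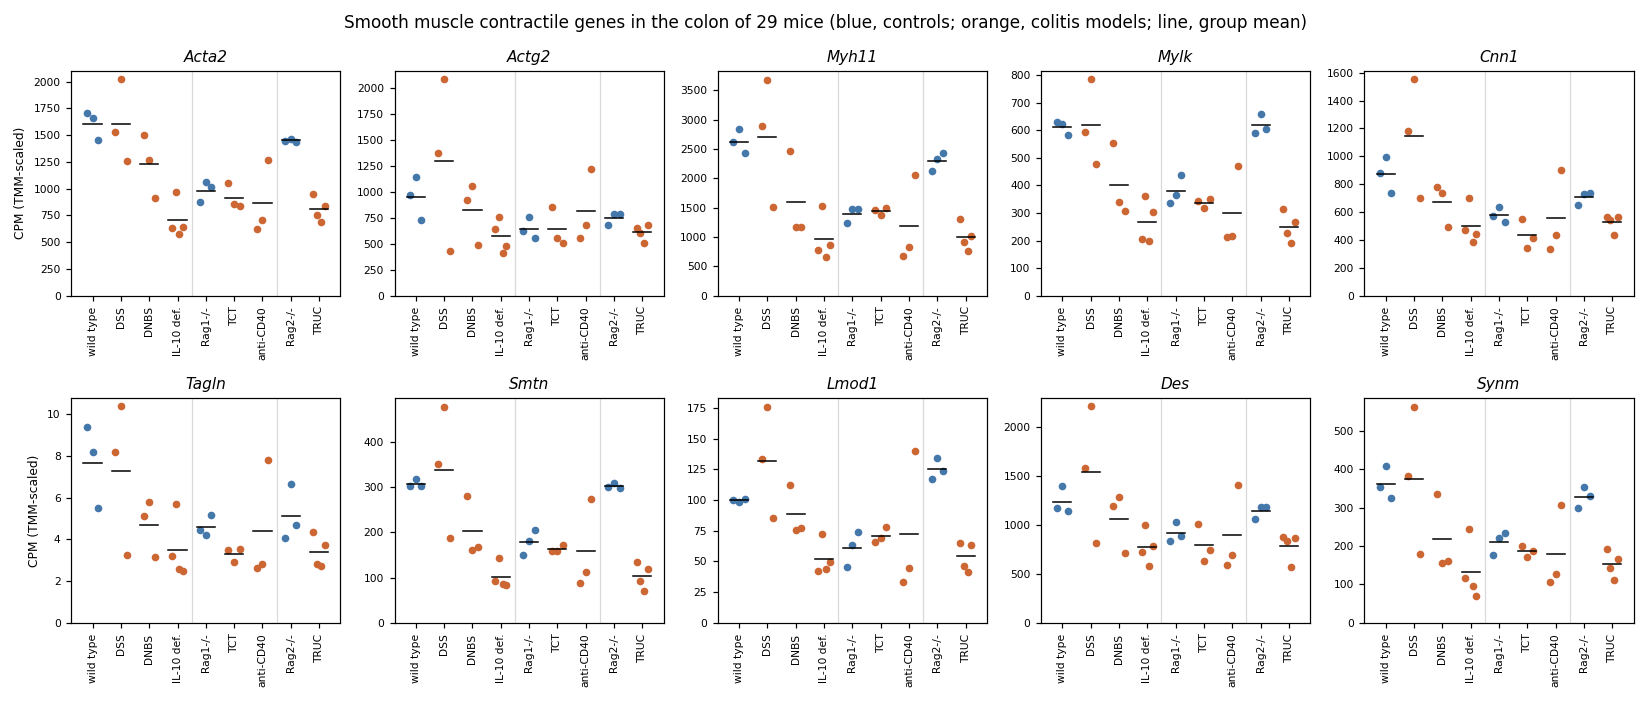
Level of each gene in every mouse, in CPM scaled by TMM on axes that start at 0, with control groups in blue, colitis models in orange and a line at the group mean. Myh11 lay between 663 and 1522 CPM in IL-10 deficiency and between 761 and 1306 in TRUC, below the 2424 to 2848 of the wild-type and 2133 to 2428 of the Rag2-/- control, while DSS and anti-CD40 mice spread widely.

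In IL-10 deficiency, 9 of the 10 genes were lower than in the wild-type control and none was higher (edgeR quasi-likelihood test, adjusted p under 0.05). Of all 18616 genes tested, 26.1% were called lower and 27.2% higher in this comparison. The median log2 fold change of the 10 genes was -1.16, against -0.01 over all genes tested, and in 8 genes every model mouse lay below every control mouse, as in 28.0% of all genes. In bulk tissue, fewer smooth muscle cells and less RNA per cell cannot be told apart.

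Myosin and its kinase were among the genes that fell. Myh11, the heavy chain of smooth muscle myosin at chr16:14194535-14291372, measured 2612, 2848 and 2424 CPM in wild-type control mice 1, 2 and 4 and 783, 1522, 663 and 864 CPM in IL-10 deficiency mice 1 to 4. Mouse 2 was the highest of the model and still lay below every control. The difference was a log2 fold change of -1.46 ± 0.33 (SE), 2.74-fold lower, with an edgeR adjusted p of 0.00091. Mylk, the myosin light chain kinase at chr16:34745210-35002420, read 629, 622 and 582 CPM in the controls and 204, 362, 200 and 304 CPM in the model, without overlap (log2 fold change -1.19 ± 0.25, edgeR adjusted p = 0.000464).

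The actin filament genes followed. Acta2, the vascular-type smooth muscle actin at chr19:34241090-34255590, had 1708, 1658 and 1450 CPM in the controls against 636, 964, 580 and 646 CPM in the model. The groups were well apart, with a log2 fold change of -1.18 ± 0.21 and an edgeR adjusted p of 8.29e-05. Actg2, the enteric smooth muscle actin at chr6:83512905-83536265, had 972, 1141 and 727 CPM in the controls and 637, 755, 409 and 479 CPM in the model. It was the member that did not pass the test, with overlapping groups and a log2 fold change of -0.73 ± 0.35 (edgeR adjusted p = 0.0819). It was called with upper quartile scaling, and both edgeR on these 2 groups alone and DESeq2 called 10 of the 10 genes, with 23.8% and 22.7% of all genes lower.

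Among the proteins that bind actin, Smtn, encoding smoothelin, a marker of contractile smooth muscle (chr11:3517523-3540612), had the lowest log2 fold change of the 10, less than 1 SE below Synm and Myh11. It had 302, 317 and 301 CPM in the controls and 93.3, 144, 85.2 and 83.0 CPM in IL-10 deficiency. That is 3.03-fold lower without overlap (log2 fold change -1.60 ± 0.31, edgeR adjusted p = 0.000198). Lmod1, encoding leiomodin, which nucleates actin filaments (chr1:135324807-135368065), fell from 99.6 ± 1.5 (SD, n = 3) to 52.2 ± 14 CPM (n = 4, edgeR adjusted p = 0.019). Cnn1, encoding calponin, an inhibitor of the actomyosin ATPase (chr9:22099216-22109630), fell from 870 ± 133 to 500 ± 139 CPM (edgeR adjusted p = 0.0168). Tagln at chr9:45929619-45936058 passed the test too (7.68 ± 1.99 to 3.50 ± 1.51 CPM, edgeR adjusted p = 0.0131), with the doubt about its counts given above and with overlapping groups.

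Both intermediate filament genes were lower. Synm, encoding synemin (chr7:67730160-67759742), had 353, 408 and 325 CPM in the controls and 117, 245, 96.3 and 68.8 CPM in the model, 2.75-fold lower (log2 fold change -1.46 ± 0.38, edgeR adjusted p = 0.00295). Des, encoding desmin (chr1:75360329-75368579), moved least among the genes called, from 1239 ± 141 to 773 ± 175 CPM (log2 fold change -0.68 ± 0.29, edgeR adjusted p = 0.0476). Its call rested on single mice, since it passed in only 1 of the 7 fits that left out a mouse, with adjusted p up to 0.133. Mouse 2 was the highest of the model for all 10 genes. Without it the median of the 10 log2 fold changes was -1.37, 9 genes were called, where 24.3% of all genes were lower, and Synm (-1.94) rather than Smtn (-1.81) had the lowest log2 fold change.

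In TRUC, 6 of the 10 genes were lower than in the Rag2-/- control, Acta2, Myh11, Mylk, Lmod1, Smtn and Synm, and none was higher. Over all genes tested, 23.4% were called lower and 22.4% higher. The median log2 fold change of the 10 genes was -0.97, against -0.03 over all genes. In 9 genes, all but Tagln, every TRUC mouse lay below every control mouse, which held for 29.2% of all genes.

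The genes of myosin and its kinase were again among those called. Myh11 read 2133, 2324 and 2428 CPM in Rag2-/- control mice 1, 2 and 4 and 1306, 911, 761 and 1025 CPM in TRUC mice 2 to 5, a 2.29-fold difference without overlap (log2 fold change -1.20 ± 0.33, edgeR adjusted p = 0.00533). Mylk read 591, 659 and 607 CPM in the controls and 313, 226, 191 and 266 CPM in TRUC (log2 fold change -1.31 ± 0.25, edgeR adjusted p = 0.000264). Both genes were highest in TRUC mouse 2 and lowest in mouse 4, and mouse 4 was the lowest of the group for all 10 genes. The count table names this mouse TRUC_8W and mouse 5 TRUCB372, unlike TRUC_2 and TRUC_3, and whether these names mark an age or a batch is not given in the sources used here.

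Of the actins only Acta2 was called, with 1448, 1464 and 1439 CPM in the controls and 946, 754, 687 and 836 CPM in TRUC (log2 fold change -0.85 ± 0.21, edgeR adjusted p = 0.00239). Actg2 had 681, 782 and 789 CPM in the controls and 654, 604, 507 and 676 CPM in TRUC, a small gap between the groups (log2 fold change -0.30 ± 0.35, 95% interval -0.99 to 0.39). Whether Acta2 and Actg2 moved unequally is taken up below from their ratio within each library.

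Smtn had the lowest log2 fold change in TRUC as well, less than 1 SE below Mylk, with 300, 309 and 297 CPM in the controls and 134, 93.3, 70.7 and 119 CPM in the model. It was 2.89-fold lower without overlap (log2 fold change -1.53 ± 0.31, edgeR adjusted p = 0.000411). Lmod1 fell from 125 ± 8.91 to 54.0 ± 12 CPM (edgeR adjusted p = 0.00415) and Synm from 328 ± 27.5 to 154 ± 34.2 CPM (edgeR adjusted p = 0.0229). The Synm call was lost in 4 of the 7 fits that left out 1 mouse, with adjusted p up to 0.0686. Des (log2 fold change -0.54 ± 0.29), Cnn1 (-0.43 ± 0.27) and Tagln (-0.58 ± 0.38) did not pass, although edgeR fitted to these 2 groups alone called 9 of the 10 genes, as did DESeq2, with 27.8% and 24.4% of all genes lower.

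Many markers of other cell types of the muscle wall were lower as well in both models. They did not follow the muscle genes in every model. The 4 markers of interstitial cells of Cajal, the pacemakers of gut muscle, were all called lower in IL-10 deficiency and in TRUC. Their summed level was 64.0 to 225 CPM in IL-10 deficiency against 316 to 411 in the wild-type control, and 166 to 263 CPM in TRUC against 421 to 485 in the Rag2-/- control. Enteric neuron markers were lower in 8 of 10 genes in IL-10 deficiency (39.2 to 78.1 CPM summed, against 112 to 118) and in 6 of 10 in TRUC, with Ret higher (55.6 to 89.0 against 100 to 112 CPM). Enteric glia markers were lower in 3 of 5 and in 5 of 5 genes, while the epithelial markers summed to 17827 to 27990 CPM in IL-10 deficiency against 12555 to 15097 in its control, and to 17373 to 19060 CPM in TRUC against 16053 to 17383. None of the 4 Cajal, 10 neuron and 5 glia markers was at 0 in a whole group. In TCT, where no muscle gene was called, Cajal markers summed to 179 to 307 CPM against 357 to 439 in its control. Neuron markers there summed to 69.6 to 112 CPM against 126 to 128, and glia markers to 17.3 to 22.6 against 26.4 to 34.1. These sums were not themselves tested. Gene by gene, edgeR called 0 of 10 neuron, 1 of 5 glia and 1 of 4 Cajal markers lower in TCT, where 14% of all genes were. The median log2 fold change of the neuron markers in TCT was -0.70. In DSS, also with no muscle gene called, Cajal markers summed to 108 to 179 CPM against 316 to 411, while neuron and glia sums were higher. Only 1 of the 4 Cajal markers, Ano1, was called lower in DSS, and their median log2 fold change was -0.24. The lower Cajal sum in DSS therefore does not stand for the 4 markers as a set. The part of tissue composition in the muscle gene results was not tested.

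**Figure D2:**
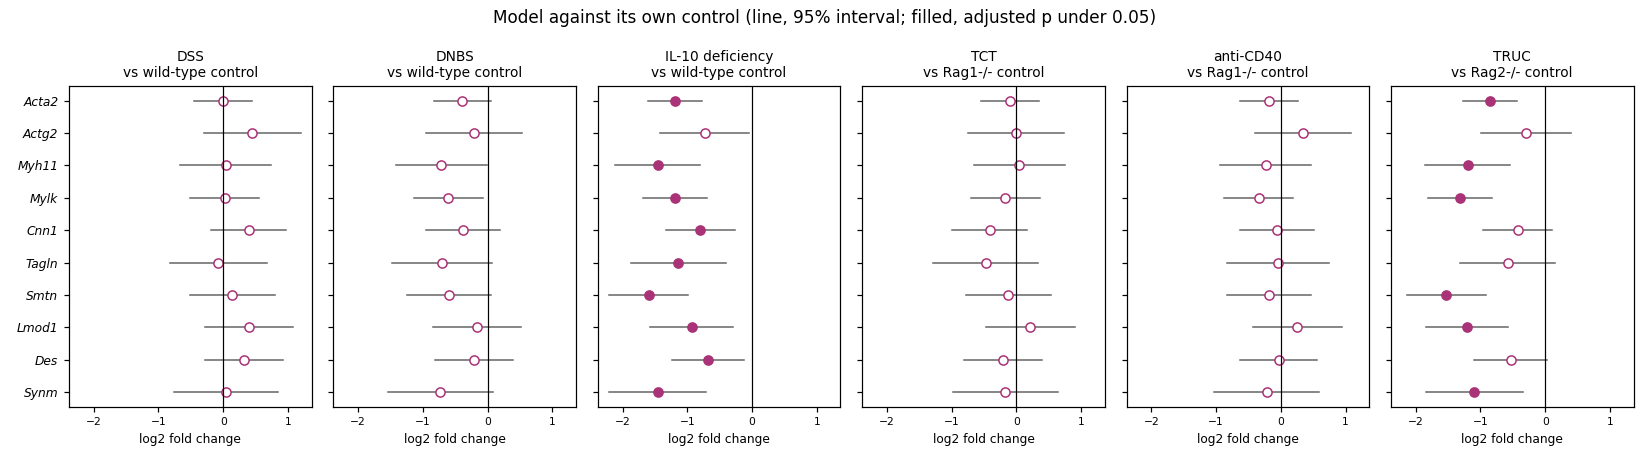
Log2 fold change of each gene in each model against its own control, with a normal 95% interval and filled points where the edgeR adjusted p was under 0.05. All 10 points lie below 0 in IL-10 deficiency, TRUC and DNBS, with 9, 6 and 0 of them filled.

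In DNBS, none of the 10 genes passed the edgeR test, where 2.21% of all genes were called lower and 3.95% higher. All 10 log2 fold changes were below 0, with a median of -0.49, and Mylk had an unadjusted p under 0.05, the count being 1 of 10. DESeq2 called 0. The mice of this group stood apart from each other. For Myh11, DNBS mouse 11 had 2465 CPM, inside the control range, and mice 14 and 16 had 1166 and 1175 CPM. Synm showed the same split, with 336 CPM in mouse 11 and 155 and 162 CPM in mice 14 and 16, as did Smtn with 280, 161 and 167 CPM. For Actg2 and Des it was mouse 16 that lay apart, at 486 and 718 CPM. Without mouse 11, Myh11 and Mylk were called lower (edgeR adjusted p = 0.0473 and 0.0415) and the median was -0.67, with 5.27% of all genes lower.

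In DSS, no gene was called by edgeR and none had an unadjusted p under 0.05, and DESeq2 likewise called 0. In the same comparison 16.3% of all genes were called lower and 17.7% higher. The DSS mice were spread widely. Mouse 6 was the highest and mouse 8 the lowest of the group for all 10 genes, with 3683 and 1518 CPM of Myh11 around 2889 CPM in mouse 5. Actg2 was the extreme case, at 2083 CPM in mouse 6, 1372 in mouse 5 and 430 in mouse 8, against 727 to 1141 CPM in the controls. Its log2 fold change of 0.45 had a 95% interval of -0.29 to 1.19, and that of Myh11, 0.04, one of -0.66 to 0.74, so that neither a moderate rise nor a moderate fall was detectable. The median of the 10 genes was 0.09, and it was -0.19 without mouse 6 and 0.41 without mouse 8. Neuron markers were higher in 7 of 10 genes in DSS (155 to 324 CPM summed, against 112 to 118 in the controls) and glia markers in 2 of 5, while 1 of the 4 markers of interstitial cells of Cajal was lower, the chloride channel gene Ano1 (90.3 ± 33.6 against 293 ± 53.5 CPM). Their part in the spread of the muscle genes was not tested.

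In TCT, no member was called against the libraries labelled Rag1-/- control, none had an unadjusted p under 0.05, and DESeq2 called 0, where edgeR called 14% of all genes lower and 16.1% higher. Myh11 had 1468, 1373 and 1487 CPM in TCT mice 1, 3 and 5 and 1243, 1471 and 1480 CPM in control mice 2, 3 and 4. The groups overlapped, with a log2 fold change of 0.04 and a 95% interval of -0.66 to 0.75. Acta2 had 1051, 852 and 835 CPM in TCT and 874, 1060 and 1011 CPM in the controls (log2 fold change -0.10, 95% interval -0.55 to 0.34).

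In anti-CD40, no member was called either, none had an unadjusted p under 0.05, and DESeq2 called 0, with 10.7% of all genes lower and 10.9% higher by edgeR. Here mouse 8 stood apart, the highest for all 10 genes, and mouse 6 was the lowest for all 10. Myh11 read 677, 835 and 2063 CPM in mice 6, 7 and 8, the first pair below and the last above all 3 controls. Lmod1 read 33.2, 44.5 and 140 CPM against 45.8, 63.5 and 74.0 CPM in the controls. Without mouse 8 the median log2 fold change of the 10 genes was -0.70 rather than -0.12, and Mylk was called lower (edgeR adjusted p = 0.0234), where 13.5% of all genes were.

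The results of TCT and anti-CD40 depended on the control. The libraries labelled Rag1-/- control themselves had low levels of the muscle genes. Myh11 was 1398 ± 134 CPM there (SD, n = 3), against 2628 ± 212 in the wild-type and 2295 ± 150 in the Rag2-/- control, and the groups did not overlap. Mylk (380 ± 53.0 against 611 ± 25.6 and 619 ± 35.5 CPM), Smtn (179 ± 27.7 against 306 ± 8.85 and 302 ± 6.20 CPM) and Acta2 (982 ± 96.2 against 1605 ± 137 and 1450 ± 12.9 CPM) were likewise lowest in the Rag1-/- control. Of the 10 genes 1, Acta2, was called lower in the Rag1-/- than in the wild-type control (log2 fold change -0.71 ± 0.23, edgeR adjusted p = 0.0462), where 6.18% of all genes were, and the median of the 10 was -0.71. Against the Rag2-/- control, edgeR called 0 of the 10 genes, 4 of them, all lower, had an unadjusted p under 0.05, and 0.0537% of all genes were called lower, with a median of -0.60 for the 10. These control groups also differ in labelled strain and genotype, which cannot be told apart. Set against the wild-type control, TCT had 5 genes lower (Acta2, Cnn1, Mylk, Smtn and Tagln) and a median of -0.86, where 13.8% of all genes were lower. Set against the Rag2-/- control, TCT and anti-CD40 each had 3 genes lower, Acta2, Mylk and Smtn, with medians of -0.68 and -0.76, where 14.6% and 11.8% of all genes were lower.

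The 6 models were then compared with each other by a test of equal fold changes. It was passed by 7 of the 10 genes, where 60.5% of all genes passed, so the count was near the share of all genes. Smtn (edgeR adjusted p = 0.000516) and Acta2 (0.000876) had the smallest values, followed by Mylk (0.00182), Lmod1 (0.00435), Myh11 (0.00527), Cnn1 (0.0128) and Synm (0.0252). Des (0.0647), Actg2 (0.0719) and Tagln (0.147) did not pass. DSS, DNBS and IL-10 deficiency share their control mice, as TCT and anti-CD40 share theirs. The count was 5 without DSS mouse 6 and 10 without DSS mouse 8.

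Ratios of genes within a library do not depend on scaling, and 3 were compared in the 6 models, 18 comparisons in all. The smallest two-sided exact permutation p is 0.0571 for 4 mice against 3 and 0.1 for 3 against 3, so none could pass 0.05. The log2 ratio of Acta2 to Actg2 was 0.40 ± 0.11 in TRUC and 0.95 ± 0.12 in its control (SD), without overlap between the mice, and 0.32 ± 0.23 in IL-10 deficiency against 0.78 ± 0.23, again without overlap (exact permutation p = 0.0571 in each, adjusted 0.171). It was also lower in every anti-CD40 mouse, at 0.19, 0.05 and 0.06 against 0.49, 0.49 and 0.87 (exact permutation p = 0.1, adjusted 0.257), although mouse 8 of that group was high for both genes.

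Transcripts of muscle myosin and actin were further compared with those of their non-muscle counterparts. The log2 ratio of Myh11 to Myh9, which encodes non-muscle myosin IIA, was 0.28 ± 0.49 in IL-10 deficiency against 2.20 ± 0.26 and 0.45 ± 0.24 in TRUC against 1.91 ± 0.13. The ratio of Actg2 to Actb, the cytoplasmic beta-actin, was -2.31 ± 0.48 against -0.45 ± 0.51 and -1.98 ± 0.28 against -0.89 ± 0.09. None of these 4 comparisons had overlapping mice (exact permutation p = 0.0571 each, adjusted 0.171). Actb itself was called higher in both models, with 2779 ± 444 CPM in IL-10 deficiency against 1280 ± 166 and 2401 ± 174 in TRUC against 1384 ± 50.0. Actb is made by most cell types of the colon, so these ratios also move with the cells that entered or left the tissue, and the leukocyte markers summed to 440 to 811 CPM in IL-10 deficiency against 110 to 126 and to 1342 to 1997 CPM in TRUC against 81.6 to 122. Their part in the ratios was not tested.

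**Figure D3:**
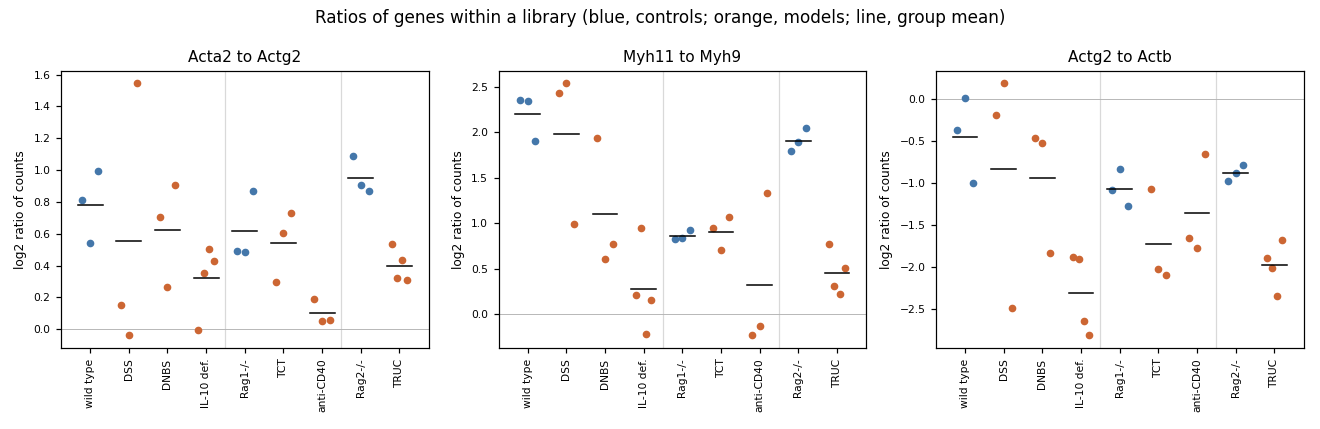
Log2 ratio of counts within each library for Acta2 to Actg2, Myh11 to Myh9 and Actg2 to Actb, with controls in blue, models in orange and a line at the group mean. All 4 IL-10 deficiency and all 4 TRUC mice lie below each of their controls in all 3 panels.

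The other genes of contraction were read as lists, and the genes named from each are the 2 to 4 with the smallest adjusted p in IL-10 deficiency, in TRUC or in DSS, with Myl9 as the exception. Of 14 further filament, light chain and phosphatase genes, 11 were lower in IL-10 deficiency and 8 in TRUC, with 1 (Myl6) and 0 higher. The medians of the list were -0.98 and -0.77 on the log2 scale. In IL-10 deficiency the leading genes were Kcnmb1, a subunit of the calcium-activated potassium channel of smooth muscle (log2 fold change -1.34, edgeR adjusted p = 6.19e-05), Ppp1r12b, a subunit of myosin phosphatase (-1.38, adjusted p = 0.000172), and Cald1, encoding caldesmon (-1.23, adjusted p = 0.000521). In TRUC, Ppp1r14a, an inhibitor of myosin phosphatase, fell from 130 ± 2.10 to 55.2 ± 6.20 CPM (edgeR adjusted p = 5.93e-05), and Ppp1r12a, the targeting subunit of myosin phosphatase, had a log2 fold change of -0.58 (adjusted p = 0.000816). Myl9, the regulatory light chain that the kinase phosphorylates, was picked for its role after its values were seen, and it fell from 823 ± 42.5 to 398 ± 71.9 CPM in TRUC and from 846 ± 92.0 to 418 ± 114 CPM in IL-10 deficiency (edgeR adjusted p = 0.00204 and 0.00206). In DSS, 2 genes of the list were higher, Hspb8 (log2 fold change 0.96) and Cald1 (0.94), and 1 was lower, Pln (-1.41). The list had 2 genes lower in TCT and none called in DNBS or anti-CD40.

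Of 18 genes of the dense plaques that anchor the filaments, 14 were lower in IL-10 deficiency (median -0.99) and 10 in TRUC (median -0.62), and none was higher in either. Dmd, encoding dystrophin, fell from 48.6 ± 5.28 to 20.3 ± 2.62 CPM in IL-10 deficiency and from 44.2 ± 2.49 to 23.8 ± 2.25 CPM in TRUC (edgeR adjusted p = 4.28e-07 and 2.96e-05). Nexn, encoding nexilin, which binds actin, had a log2 fold change of -1.44 in IL-10 deficiency (edgeR adjusted p = 1.32e-05), and in TRUC the next genes were Parva, encoding parvin (-0.59, adjusted p = 3.43e-05), and Pgm5 (-1.40, adjusted p = 0.000283). Flna, encoding filamin A, had log2 fold changes of -1.17 and -1.01 in these models and was called in both. Vcl, encoding vinculin, was lower in IL-10 deficiency (-1.08), while its log2 fold change in TRUC was -0.09 (edgeR adjusted p = 0.687). In DSS 4 genes were higher and none lower, led by Itga5, a fibronectin receptor chain (1.34), and Tln1, encoding talin (0.66). TCT had 1 lower and 1 higher, anti-CD40 had 2 lower, and DNBS had none called.

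The genes that carry calcium, receptor and relaxation signals split in direction. Of 14, 10 were lower and 3 higher in IL-10 deficiency (median -1.17), and 8 were lower and 3 higher in TRUC (median -1.01), with Atp2a2, Rock2 and Rhoa higher in both. Gucy1a1, a subunit of the guanylate cyclase that senses nitric oxide, fell from 38.0 ± 5.63 to 8.94 ± 1.87 CPM in IL-10 deficiency (edgeR adjusted p = 2.41e-07). Itpr1, a calcium release channel of the stores, had log2 fold changes of -1.41 and -1.28 in IL-10 deficiency and TRUC, and Pde5a, which degrades cyclic GMP, had -0.90 and -1.01, all called. Tacr2, the neurokinin receptor, fell from 16.1 ± 1.61 to 3.81 ± 1.04 CPM in TRUC (edgeR adjusted p = 5.75e-05). Kcnma1, the pore of the calcium-activated potassium channel, was lower in TRUC (-1.14) and higher in DSS (0.71), as was Rock2, a kinase that inhibits myosin phosphatase (0.65), where 4 genes of the list were higher and none lower. DNBS had 1 higher, TCT 1 lower and 1 higher, and anti-CD40 3 lower and 3 higher.

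The transcription factors read as a list did not all move in the same direction. Myocd, encoding myocardin, fell from 6.58 ± 0.60 to 2.37 ± 0.60 CPM in TRUC and from 7.22 ± 1.28 to 2.85 ± 1.39 CPM in IL-10 deficiency (edgeR adjusted p = 0.000932 and 0.00141). Srf, its partner that binds the CArG box, was higher in IL-10 deficiency (log2 fold change 0.56, edgeR adjusted p = 0.00213), with 0.26 in TRUC (adjusted p = 0.14). Mrtfb, a relative of myocardin, was lower in TRUC (-0.69), in IL-10 deficiency (-0.70) and in DSS (-1.03). Foxf1, a factor of gut mesenchyme, was lower in TRUC (-0.89) and higher in DSS (0.89), Foxf2, its relative, was lower in TRUC (-1.04), and Klf5 was lower in TRUC (-0.75) and in DSS (-1.16). In total 6 of 10 regulators were lower in TRUC with 0 higher, 2 were lower and 3 higher in IL-10 deficiency, 4 were lower and 2 higher in DSS, 1 was lower in TCT, and none was called in DNBS or anti-CD40. Of all genes, 23.4% were lower and 22.4% higher in TRUC, 26.1% and 27.2% in IL-10 deficiency, and 16.3% and 17.7% in DSS. The counts in IL-10 deficiency were thus near the shares of all genes.

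The non-muscle actins and myosins, 6 genes, had 4 higher and 1 lower in IL-10 deficiency and 3 higher in TRUC, Actb, Actg1 and Myl12a being higher in both. In DSS 2 were higher and 1 lower, in DNBS 1 was lower, and 2 and 1 were higher in TCT and anti-CD40. Of 12 skeletal and cardiac muscle genes only 7 passed the filter on low counts. Of these, 3 were lower in IL-10 deficiency (Tnnt2, Ckm and Actc1) and 2 in TRUC (Tnnt2 and Ckm). In DNBS 1 was higher, as was 1 in anti-CD40, and none was called in DSS or TCT. Of all genes, 26.1% were lower in IL-10 deficiency and 23.4% in TRUC, and 3.95% and 10.9% were higher in DNBS and anti-CD40. The count in TRUC was thus near the share of all genes. The skeletal muscle markers summed to at most 63.1 CPM in any mouse, a value of DNBS, where they ran from 15.9 CPM upward. In anti-CD40 they summed to 5.82 to 41.3 CPM. Myh1 and Myh4 were at 0 in all IL-10 deficiency, TRUC, anti-CD40 and Rag1-/- control mice. Myh1 was also at 0 in all Rag2-/- control mice, and Myh4 in all DSS and TCT mice.

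**Figure D4:**
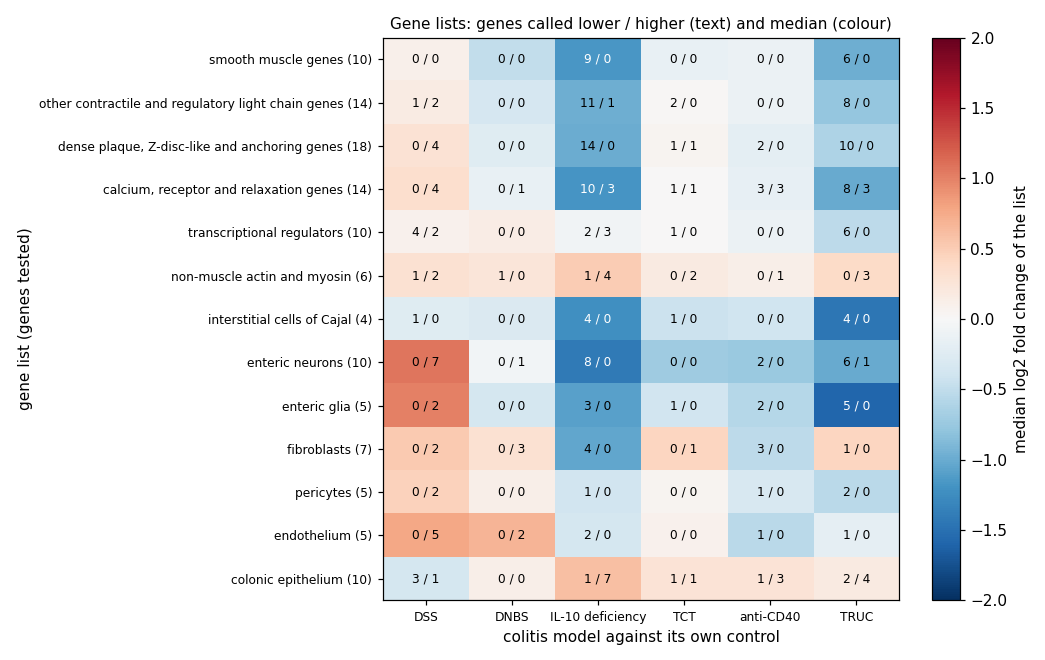
Gene lists by model, each against its own control, with the number of genes called lower and higher in each cell and the median log2 fold change as the colour. The lists of muscle, anchoring, Cajal, neuron and glia genes are blue in IL-10 deficiency and TRUC, while neuron and glia lists are red in DSS.

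The genes varied together from mouse to mouse. Over the 29 mice, which share groups and library scaling, Pearson's r of log2 CPM between 2 members ran from 0.64 (Actg2 and Mylk) to 0.97 (Myh11 and Smtn). The 6 lowest values all involved Actg2, which stood at r = 0.71 with Smtn and 0.73 with Myh11, while it reached 0.91 with Des. The summed level of the 10 genes ran from 3052 CPM in an IL-10 deficiency mouse to 13574 CPM in DSS mouse 6. Synm had the widest range of single genes, from 68.8 to 560 CPM, and Acta2 the narrowest, from 580 to 2028 CPM, a ratio of 3.5 between the highest and lowest mouse.

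Outside the fixed lists, the genes most like the mean of the members were Jph2 (r = 0.97), encoding a junctophilin that couples surface membrane and calcium stores, Dmpk (0.96), the myotonic dystrophy kinase, and Slc2a4 (0.94), the insulin-sensitive glucose transporter. Speg, Popdc2, Bves, Tns1, Ckb, Pnck and Nkd2 followed with r between 0.93 and 0.94. Jph2 had a log2 fold change of -1.05 in TRUC and -1.01 in IL-10 deficiency. These genes were picked for their likeness to the members over the same mice, so that they follow them across the groups is fixed by that choice.

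**Figure D5:**
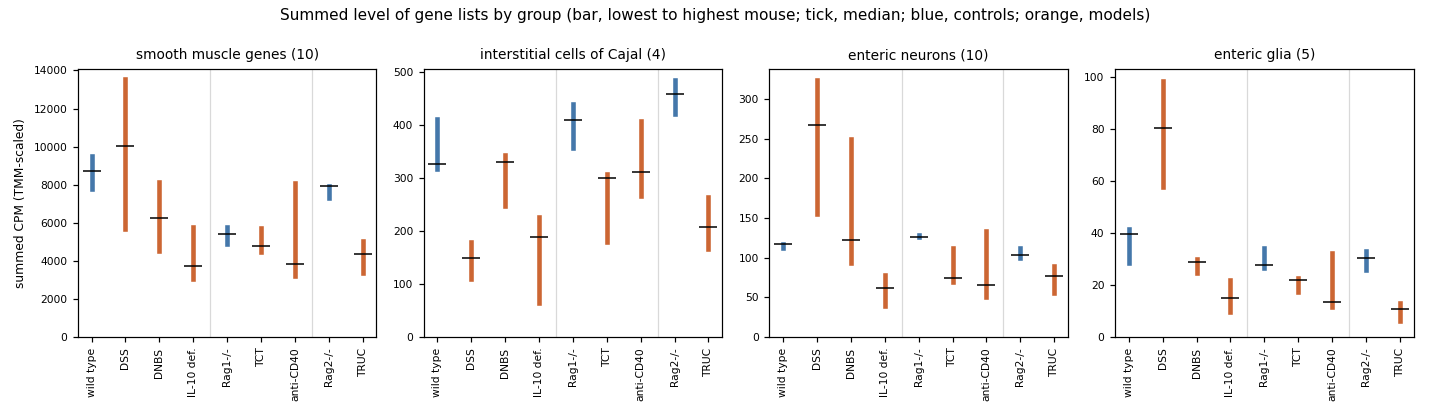
Summed CPM of the 10 smooth muscle genes and of the markers of interstitial cells of Cajal, enteric neurons and enteric glia by group, with a bar from the lowest to the highest mouse and a tick at the median. Muscle genes summed to 3052 to 5776 CPM in IL-10 deficiency and 3383 to 5056 in TRUC, below their controls at 7792 to 9499 and 7282 to 7954, and the DSS bars of neurons and glia lie above those of the wild-type control.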

How the data were processed

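Poly(A) RNA of 29 colon samples was sequenced, and the authors deposited raw counts per Ensembl gene, which were made with Trimmomatic, HISAT2 and HTSeq on GRCm38 according to the submitters' processing notes. Versions and strandedness are not given in the sources used here. Of 54532 genes, 20470 had no count, and 92 spike-ins had 0 counts in all. Symbols came from GENCODE M21 (54409 genes matched). Counts of mice were tested with edgeR 4.0.16 in R 4.3.3 (TMM, quasi-likelihood, all 9 groups in 1 fit) for the 18616 genes averaging 3 or more counts over all mice, with Benjamini-Hochberg adjustment over all of them and a threshold of 0.05. CPM values are TMM-scaled, intervals are normal 95% intervals, and log2 ratios used a prior count of 0.5. Genes named were the 10 members, the 2 to 4 genes of each list with the smallest adjusted p in IL-10 deficiency, TRUC or DSS (and Myl9, chosen after its values were seen), and the 10 genes outside the lists most correlated with the mean of the members. Members and lists were chosen with earlier results of these data known. The script was tested on simulated data. Replicates are separate mice by their labels. No pair of 33 within groups looked like a repeated library. Alternatives were DESeq2 1.42.0, edgeR on 2 groups, RLE and upper quartile scaling, other filters, other control groups, a replicate block and leaving out each mouse. Contrasts between control groups and the looser CArG search were added after the data were seen. Intervals of fold changes include the spread between mice, while the limit for a count of 0 covers counting error only.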

Additional observations from a re-analysis of the deposited data

Results flagged for a closer look

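A single outlying value was looked for in 26 sets of 4 values, all from the IL-10 deficiency and TRUC mice, and 3 sets had one. Chance alone would give about 1 in 20 if the sets were independent. They share the same mice and the genes varied together, so the count cannot be set against that rate. In IL-10 deficiency, mouse 2 lay far above the other 3 mice for Acta2, at 964 CPM, and for Smtn, at 144 CPM. In TRUC, mouse 4 lay far below the others for Des, at 576 CPM.

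The fold changes of 7 of the 10 genes differed between the 6 models (edgeR, joint test), where 60.5% of all genes did. The count was thus near the share of all genes. It was 5 without DSS mouse 6 and 10 without DSS mouse 8. The adjusted p was 0.000516 for Smtn, 0.000876 for Acta2, 0.00182 for Mylk, 0.00435 for Lmod1, 0.00527 for Myh11, 0.0128 for Cnn1 and 0.0252 for Synm.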

How the results depend on the processing

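With 3 or 4 mice a group, no alternative scaling or filter moved the count of muscle genes called by more than 1.5 times. At an adjusted p under 0.01 the count in IL-10 deficiency was 5 rather than 9, and the share of all genes at that limit was not taken. The counts depended on the control group for TCT, which had 5 genes lower against the wild-type and 3 against the Rag2-/- control, and for anti-CD40, which had 3 against the Rag2-/- control, in place of 0. There the log2 fold change of Myh11 in TCT was -0.87 and -0.67, that of Lmod1 in TCT -0.49 and -0.82, and that of Lmod1 in anti-CD40 -0.78. The log2 fold change of Acta2 in DSS, near 0, became 0.023 with RLE size factors, 0.031 without a filter and 0.047 with filterByExpr, and that of Mylk in DSS became -0.016 with upper quartile scaling. The cause of these shifts was not tested. Upper quartile scaling moved the median of all genes by -0.17 in IL-10 deficiency and -0.11 in TRUC.

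Mice with the same number in a model and its control shared only a number (correlation of deviations -0.05 to 0.06). With the replicate block, edgeR on the 2 groups called 9 genes in TRUC and 10 in IL-10 deficiency, as it did without the block. The share of all genes called lower was taken only without the block, at 27.8% in TRUC and 23.8% in IL-10 deficiency. No paired analysis was possible for the other models because they share fewer than 2 numbers with their controls.

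Leaving out 1 mouse at a time gave counts of 5 to 6 in TRUC, 7 to 9 in IL-10 deficiency, 0 to 2 in DNBS, 0 to 1 in anti-CD40, 0 in DSS and TCT and 5 to 10 between models. Among these fits the share of all genes was taken only without IL-10 deficiency mouse 2, DNBS mouse 11 or anti-CD40 mouse 8, as given above. In IL-10 deficiency the call was lost for Des in 6 of 7 fits, for Cnn1 in 2 (without control mouse 2 or model mouse 3), for Tagln in 1 (without control mouse 1) and for Lmod1 in 1 (without model mouse 1). Log2 fold changes that crossed 0 ran in DSS from -0.21 to 0.15 for Acta2, -0.071 to 0.87 for Actg2, -0.25 to 0.32 for Myh11, -0.42 to 0.27 for Tagln, -0.044 to 0.62 for Des, -0.19 to 0.18 for Mylk, -0.37 to 0.38 for Synm and -0.19 to 0.43 for Smtn. In DNBS they ran from -0.42 to 0.063 for Actg2 and -0.37 to 0.0043 for Des, and in TCT from -0.28 to 0.14 for Actg2 and -0.025 to 0.095 for Myh11. In anti-CD40 they ran from -0.55 to 0.0095 for Acta2, -0.060 to 0.56 for Actg2, -0.88 to 0.051 for Myh11, -0.75 to 0.22 for Tagln, -0.52 to 0.20 for Des, -0.59 to 0.21 for Cnn1, -0.65 to 0.60 for Lmod1, -0.85 to 0.051 for Synm and -0.83 to 0.11 for Smtn. The differences in log2 ratio that crossed 0 were Acta2 to Actg2 in DSS (-0.72 to 0.067), DNBS (-0.30 to 0.024) and TCT (-0.16 to 0.056), Myh11 to Myh9 in DSS (-0.49 to 0.28) and TCT (-0.038 to 0.14), and Actg2 to Actb in DSS (-0.89 to 0.45).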

Other observations

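Markers of the other cell types of the colon were compared in each model with its own control by the edgeR test. Among all genes tested, 23.4% were called lower and 22.4% higher in TRUC, 26.1% and 27.2% in IL-10 deficiency, and 16.3% and 17.7% in DSS. These shares were 14% and 16.1% in TCT, 10.7% and 10.9% in anti-CD40, and 2.21% and 3.95% in DNBS. In TRUC and IL-10 deficiency, a single gene called in a list below was thus no more than the share of all genes. Of 8 leukocyte markers, 7 were higher in TRUC, DSS, IL-10 deficiency and TCT, 5 in anti-CD40 and 3 in DNBS, and none was lower. Of 5 endothelial markers, all 5 were higher in DSS and 2 in DNBS, while 2 were lower in IL-10 deficiency and 1 each in TRUC and anti-CD40. Fibroblast markers, 7 genes, were lower in 4 in IL-10 deficiency, 3 in anti-CD40 and 1 in TRUC, and higher in 3 in DNBS, 2 in DSS and 1 in TCT. Pericyte markers, 5 genes, were lower in 2 in TRUC and 1 each in IL-10 deficiency and anti-CD40, and higher in 2 in DSS. Of 10 epithelial markers, 7 were higher and 1 lower in IL-10 deficiency, 4 higher and 2 lower in TRUC, 3 higher and 1 lower in anti-CD40, 1 each way in TCT, 1 higher and 3 lower in DSS, and none was called in DNBS. Of the markers of the muscle wall, interstitial cells of Cajal had 1 of 4 lower in DSS and in TCT, neurons 1 of 10 higher in DNBS and 2 lower in anti-CD40, and glia 1 of 5 lower in TCT and 2 lower in anti-CD40.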
